A study of Mus musculus with 6 samples.

Results

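The genes described here build and report the antigen receptor of developing B cells: Rag1, Rag2, Dntt, Igll1, Vpreb1, Vpreb2, Vpreb3, Cd79a, Cd79b and Blnk. These 10 genes were taken by symbol from the 20097 mouse genes in the deposited tables, all 10 were found, and all 10 were among the 15410 genes that passed the filter on low values. Their RNA was measured by strand-specific poly-A RNA sequencing in mouse bone marrow cells carrying c-Kit, a population enriched for blood stem and progenitor cells by the receptor that Kit encodes. By the labels, 3 libraries are of genotype WT (wild type) and 3 of genotype Runx1 KO, a knockout of the gene for the transcription factor RUNX1. How and when Runx1 was disrupted, the strain, the age and the sex are not given in the sources used here, and nothing says whether the 3 libraries of a group came from separate animals, so that p-values measure only the spread between these libraries.

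In a B-cell progenitor, RAG1 and RAG2 form the enzyme that cuts DNA beside the V, D and J segments of the immunoglobulin genes, and the polymerase encoded by Dntt adds bases to the cut ends before they are joined. Once a heavy chain has been made, it pairs with the surrogate light chain, formed by the products of Igll1 and of Vpreb1 or Vpreb2, and this pre-B receptor signals through CD79A and CD79B to the adaptor BLNK. In bone marrow, Dntt and Rag1 are already transcribed in lymphoid-primed progenitors that have not entered the B lineage.

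Each library held between 23297526 and 26793380 reads over the listed genes. Values below are normalised read counts, that is, reads divided by 1 size factor for each library, and 3 reads correspond to between 2.88 and 3.14 of these units. Runx1 RNA itself was higher in the libraries labelled Runx1 KO (6399 ± 494 against 3109 ± 356, SD, n = 3; log2 change 1.04, SE 0.10, limma adjusted p = 0.00163), which goes against a loss of transcript. Values per gene do not show whether an exon is missing, so the groups are named by their labels, and every direction runs from the label WT to the label Runx1 KO. The library of Runx1 KO replicate 1 stood apart from the other Runx1 KO libraries on the first principal component, with a score of 22.8 against 64.5 and 60.8. WT replicate 1 also lay away from the other WT libraries, with -65.0 against -39.8 and -43.3. Kit, Cd34, Mpo and 4 other genes of progenitors and early myeloid cells were abundant in every library, with a sum between 156286 and 178769 normalised reads. Of these 7 genes, 3 were higher and 2 lower (limma adjusted p under 0.05), against 10.6% and 11.3% of all genes tested. Kit had 8301 ± 280 under the label WT and 12649 ± 1093 under the label Runx1 KO (SD, n = 3). Its log2 change was 0.60 (SE 0.07, limma adjusted p = 0.00346).

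The sequence before the start site was examined because several of these genes are textbook targets of RUNX1, EBF1 and E2A. The windows were the 250 bases upstream of the RefSeq start (GRCm38.p6), available for 9 of the 10 genes, Cd79b being the other one. For Vpreb1, Vpreb2, Vpreb3, Cd79a and Blnk the gene in the GENCODE annotation begins upstream of this start, so that the window overlaps the annotated gene. Both strands were searched for 6 motifs. The RUNX motif TGTGGT was found in Rag1, Vpreb3 and Igll1, 3 of the 9, against 14.0% of 32841 promoters of the same length, and the variant TGCGGT in 0 of 9 against 5.10%. The EBF1 motif CCCNNGGG was found in Igll1 (1 of 9, against 11.8%), the E2A motif CAGGTG in 6 of 9 (17.2%), the ETS motif GAGGAA in 4 of 9 (23.3%) and the FOXO motif GTAAACA in 0 of 9 (3.17%). None of the 15 matches overlapped another, and a match describes letters, not binding. The search was for exact strings, so a window without a match can still hold a site that differs from them. The 3 windows with a RUNX match are printed 5′ to 3′ because their genes carry the factor's core motif within this distance, with capitals for the RUNX motif and, in Igll1, also for the EBF1 motif that lies first.
Rag1 (chr2:101649533-101649782, minus strand): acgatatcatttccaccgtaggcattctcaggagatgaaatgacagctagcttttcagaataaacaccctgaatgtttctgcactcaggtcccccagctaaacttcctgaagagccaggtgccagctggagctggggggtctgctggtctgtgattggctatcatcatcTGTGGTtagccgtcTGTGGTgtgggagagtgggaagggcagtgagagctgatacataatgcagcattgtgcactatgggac
Vpreb3 (chr10:75948050-75948299, plus strand): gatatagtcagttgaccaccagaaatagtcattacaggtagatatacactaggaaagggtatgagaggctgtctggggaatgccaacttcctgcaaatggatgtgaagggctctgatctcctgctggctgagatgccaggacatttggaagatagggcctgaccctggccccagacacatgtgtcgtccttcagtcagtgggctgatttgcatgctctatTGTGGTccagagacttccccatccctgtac
Igll1 (chr16:16863986-16864235, minus strand): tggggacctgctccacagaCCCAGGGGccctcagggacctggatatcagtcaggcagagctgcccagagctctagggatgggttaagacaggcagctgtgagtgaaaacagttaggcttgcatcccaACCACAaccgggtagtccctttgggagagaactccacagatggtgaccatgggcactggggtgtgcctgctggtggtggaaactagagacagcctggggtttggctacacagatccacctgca
In Rag1 the matches lie 81 to 76 and 67 to 62 bases before the start, in Vpreb3 30 to 25 bases before it, and in Igll1 123 to 118 bases before it on the opposite strand. Dntt, the gene among the 10 that rose, had no match to any of the 6 motifs in this window. Cd79a, which had the largest fall, had E2A and ETS matches but no RUNX or EBF1 match. A link between matches and changes was not tested.

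Vpreb1 and Vpreb2 are near-identical copies, and their windows are printed with capitals for the stretch that both windows share.
Vpreb1 (chr16:16869256-16869505, minus strand): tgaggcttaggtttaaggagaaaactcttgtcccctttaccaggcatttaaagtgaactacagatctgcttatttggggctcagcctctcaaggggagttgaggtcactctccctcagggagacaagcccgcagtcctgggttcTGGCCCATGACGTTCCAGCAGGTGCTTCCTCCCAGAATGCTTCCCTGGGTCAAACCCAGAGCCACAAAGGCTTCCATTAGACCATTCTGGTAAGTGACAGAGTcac
Vpreb2 (chr16:17980315-17980564, plus strand): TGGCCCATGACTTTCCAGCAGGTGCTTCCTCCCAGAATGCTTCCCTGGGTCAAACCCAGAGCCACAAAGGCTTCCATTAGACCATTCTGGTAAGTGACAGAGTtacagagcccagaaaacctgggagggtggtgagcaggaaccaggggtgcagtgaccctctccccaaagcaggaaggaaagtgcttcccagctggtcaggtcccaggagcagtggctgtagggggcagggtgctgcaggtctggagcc
The shared stretch has 103 positions, of which 102 are identical. It lies 106 to 4 bases before the RefSeq start of Vpreb1 and 250 to 148 bases before that of Vpreb2. It contains the E2A and ETS matches of both genes. The stretch begins at the first base of the Vpreb2 window, and bases outside the windows were not aligned, so how far the likeness reaches was not tested. The open reading frames of the transcripts (GENCODE M21) were 429 bases long in both and 97.9% identical, and 32.8% of the 50-base windows of the Vpreb2 transcript occurred unchanged in the Vpreb1 transcript. How reads were divided between the copies is not given in the sources used here, so the values of Vpreb1 and Vpreb2 are uncertain relative to each other.

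Of the 10 genes, 4 fell in the libraries labelled Runx1 KO and 1 rose. Cd79a, Vpreb3, Rag1 and Cd79b fell, Dntt rose, and Rag2, Igll1, Vpreb1, Vpreb2 and Blnk did not pass the test (limma, adjusted p under 0.05 over all genes tested). Of all genes tested, 11.3% were lower and 10.6% higher by the same rule. The median log2 change of the 10 genes was -2.49, against -0.0042 over all genes tested. The groups did not overlap in 6 of the 10 genes, against 43.3% of all genes tested. In either direction, limma called 21.9% of all genes, 1631 higher and 1739 lower, and scaling by library totals turned this split into 2383 higher and 1372 lower. The edgeR test called 3 of the 10 lower (10.5% of all genes), without Rag1.

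The calls depended on single libraries. Lower and called were 3 genes without WT replicate 1 (Rag1 lost; 8.02% of all genes in that fit), 3 without WT replicate 2 (Rag1 lost; 7.75%) and 2 without WT replicate 3 (Rag1 and Cd79b lost; 7.46%). Leaving out Runx1 KO replicate 3 kept Cd79a alone (1 gene, against 5.75%), and leaving out Runx1 KO replicate 2 kept 0 (4.65%). Without Runx1 KO replicate 2, 6 were lower at an unadjusted p under 0.05 in limma, the tool of all these fits. In that fit 4411 of all 15794 genes tested had an unadjusted p under 0.05, counted in either direction. Without Runx1 KO replicate 1, 8 of the 10 were lower and called, all but Rag2 and Dntt, against 12.4% of all genes. The count was also 8 (13.2%) when WT replicate 1 and Runx1 KO replicate 1, which stood apart, were both left out, a choice made after seeing the data.

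**Figure D1:**
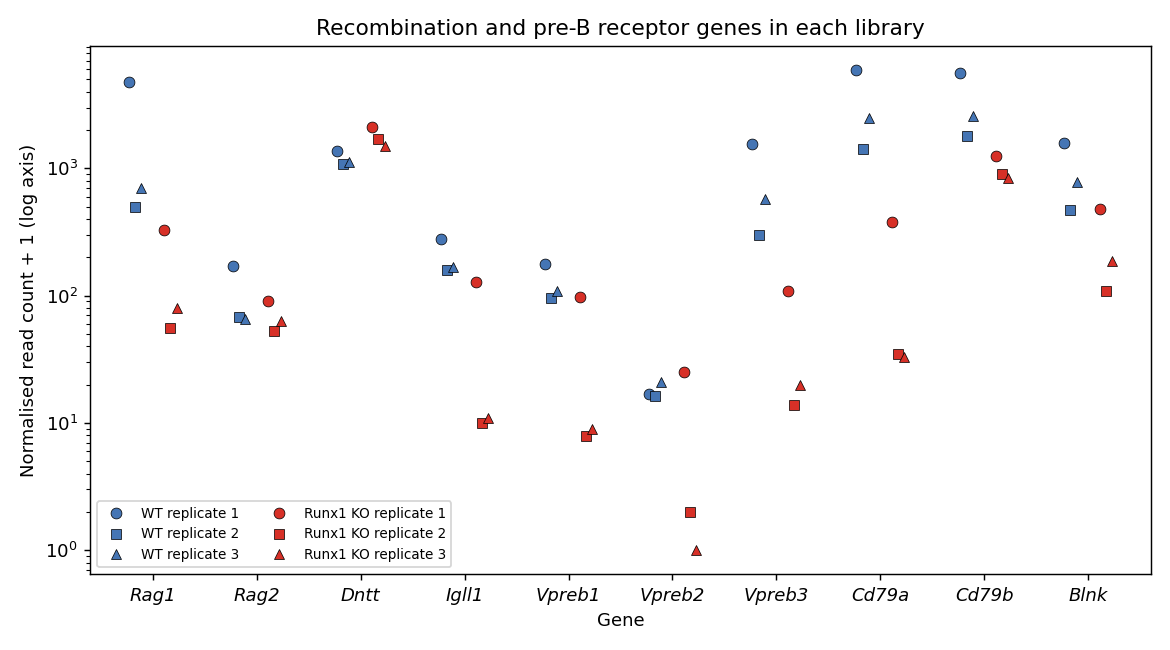
Normalised read count plus 1 (log axis) of the 10 genes in each of the 6 libraries, blue for the label WT and red for the label Runx1 KO, with a marker shape for each replicate number. Runx1 KO replicate 1 (red circles) lies above the other red points in every gene, and Dntt is the gene with all red points above the blue ones.

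Rag1 fell, and Rag2 did not pass the test. Rag1 (ENSMUSG00000061311; GRCm38 chromosome 2, 101638282 to 101649501, minus strand) had 4780.2, 493 and 699 normalised reads under the label WT and 328, 54.5 and 78.6 under the label Runx1 KO, each in the order of replicates 1 to 3, as for all genes below. WT replicate 1 was far above the other WT libraries, at 8.02 times their mean, and the groups did not overlap. The means were 1991 ± 2418 and 154 ± 152 (SD, n = 3), 12.9-fold apart, and the log2 change was -3.38 (SE 0.97, limma adjusted p = 0.0468). This call is close to its limit: the edgeR test gave an adjusted p of 0.0540, limma without WT replicate 1 gave a log2 change of -2.38 with an adjusted p of 0.0733, and the call was also lost without any other single library except Runx1 KO replicate 1.

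Rag2 (ENSMUSG00000032864; chromosome 2, 101624718 to 101632529, plus strand), whose product is the partner that RAG1 needs for cutting, had 171, 66.6 and 64.3 normalised reads under the label WT and 90.0, 51.5 and 62.7 under the label Runx1 KO. The groups overlapped, and apart from WT replicate 1 all libraries lay between 51.5 and 90.0. With a log2 change of -0.44 (SE 0.41, limma adjusted p = 0.473) Rag2 was not called, and without WT replicate 1 it was 0.02. Both Rag genes lie inside the gene B230118H07Rik, which is on the minus strand, and share 80 (Rag1, same strand) and 208 (Rag2, opposite strand) exon bases with it. B230118H07Rik had a log2 change of -0.07 (limma adjusted p = 0.623).

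Dntt (ENSMUSG00000025014; chromosome 19, 41029275 to 41059525, plus strand), which encodes terminal deoxynucleotidyl transferase, rose. It had 1362, 1079 and 1117 normalised reads under the label WT and 2114, 1696 and 1511 under the label Runx1 KO. Every library labelled Runx1 KO was above every library labelled WT, and WT replicate 1 was only 1.24 times the mean of the other WT libraries. The means were 1186 ± 154 and 1773 ± 309 (SD, n = 3), and the log2 change was 0.57 (SE 0.14, limma adjusted p = 0.0311; edgeR adjusted p = 0.0316). The call was lost without WT replicate 2, WT replicate 3 or Runx1 KO replicate 2, with limma adjusted p values of 0.0930, 0.0853 and 0.0880 and log2 changes from 0.51 to 0.60.

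The surrogate light chain genes were low in Runx1 KO replicates 2 and 3 and close to WT levels in replicate 1, and they did not pass the test. Igll1 (ENSMUSG00000075370; chromosome 16, 16860671 to 16863985, minus strand), which encodes the lambda5 chain, had 278, 158 and 166 normalised reads under the label WT and 128, 8.92 and 9.95 under the label Runx1 KO. The groups did not overlap, but Runx1 KO replicate 1 lay at 80.6% of the lowest WT library and at 13.5 times the mean of the other Runx1 KO libraries. With all libraries the log2 change was -3.02 (SE 0.94, limma adjusted p = 0.0598), and without Runx1 KO replicate 1 it was -4.23 (limma adjusted p = 0.00137). The count models gave smaller changes, -2.03 in edgeR (adjusted p = 0.159) and -2.04 in DESeq2 (adjusted p = 0.202), and the group means were 4.11-fold apart.

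Vpreb1 (ENSMUSG00000059305; chromosome 16, 16868403 to 16870843, minus strand), which encodes the variable-like part of the surrogate light chain, had 176, 94.9 and 108 normalised reads under the label WT and 96.2, 6.94 and 7.96 under the label Runx1 KO. The value of Runx1 KO replicate 1 lay within the WT range, and the other Runx1 KO libraries lay at 5.49% and 6.29% of the WT mean. Their mean was 7.33% of the mean of WT replicates 2 and 3. The fitted log2 change was -2.69 (SE 0.92, limma adjusted p = 0.0776), and -3.87 without Runx1 KO replicate 1 (limma adjusted p = 0.00177). It was -1.76 in edgeR (adjusted p = 0.206) and -1.78 in DESeq2 (adjusted p = 0.116), and the group means were 3.41-fold apart. Vpreb1 shares 108 exon bases with Top3b on the opposite strand, and Top3b had a log2 change of -0.10 (limma adjusted p = 0.234).

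Vpreb2 (ENSMUSG00000059280; chromosome 16, 17980428 to 17981273, plus strand) had the lowest mean per length of the 10 in both groups, within the spread of Rag2, with 15.8, 15.1 and 20.1 normalised reads under the label WT and 24.1, 0.991 and 0 under the label Runx1 KO. Before scaling, Runx1 KO replicate 1 held 23 reads, replicate 2 held 1 and replicate 3 held 0, so 1 Runx1 KO library was above all WT libraries and the others were under the floor of 3 reads. The fitted log2 change, which at such low counts depends on the pseudocount, was -2.28 (SE 1.10, limma adjusted p = 0.177), and -3.67 without Runx1 KO replicate 1 (limma adjusted p = 0.00473). Both edgeR and DESeq2 gave less, -1.04 (adjusted p = 0.507) and -1.03 (adjusted p = 0.643).

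Vpreb3 (ENSMUSG00000000903; chromosome 10, 75943057 to 75949657, plus strand), whose product binds immunoglobulin chains inside B cells and is not part of the surrogate light chain, fell. It had 1566, 297 and 578 normalised reads under the label WT and 108, 12.9 and 18.9 under the label Runx1 KO. The groups did not overlap, although both spread widely, and the means of 814 ± 667 and 46.5 ± 53.1 (SD, n = 3) were 17.5-fold apart. The log2 change was -4.38 (SE 0.87, limma adjusted p = 0.0149), with adjusted p values of 0.0557 and 0.0533 without Runx1 KO replicates 2 and 3, and without Runx1 KO replicate 1 it was -5.28 (limma adjusted p = 0.00437). Against Vpreb1 its coding sequence was 46.9% identical over the aligned positions, and 0 of its 50-base windows occurred in the Vpreb1 transcript.

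Of the genes for the signalling part of the receptor, Cd79a had the largest fall of the 10 and Cd79b a smaller one. Cd79a (ENSMUSG00000003379; chromosome 7, 24897381 to 24902197, plus strand) had 5934, 1409.6 and 2489 normalised reads under the label WT and 381, 33.7 and 31.8 under the label Runx1 KO. No library overlapped between the groups. In Runx1 KO replicate 1 Cd79a was at 11.6% of the WT mean, and in replicates 2 and 3 at 1.03% and 0.971%. WT replicate 1 lifts this mean too, and Runx1 KO replicates 2 and 3 averaged 1.68% of the mean of WT replicates 2 and 3. The log2 change was -5.18 (SE 0.99, limma adjusted p = 0.0130), the 21st largest in size among the genes tested by limma, and it was -4.46 in edgeR (adjusted p = 0.0254). Without Runx1 KO replicate 2 it was -4.62 (limma adjusted p = 0.0525), and without Runx1 KO replicate 1 it was -6.35 (limma adjusted p = 0.00183).

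Cd79b (ENSMUSG00000040592; chromosome 11, 106311341 to 106314762, minus strand), which encodes the partner of CD79A, had 5649.8, 1811 and 2584 normalised reads under the label WT and 1246, 904 and 832 under the label Runx1 KO. The groups did not overlap, and the Runx1 KO libraries stayed close together at 37.2%, 27.0% and 24.9% of the WT mean. WT replicate 1 lifts this mean, and Runx1 KO replicate 1 lay at 68.8% of the lowest WT library. The mean of Runx1 KO replicates 2 and 3 was 39.5% of the mean of WT replicates 2 and 3. The log2 change was -1.61 (SE 0.39, limma adjusted p = 0.0288), with adjusted p values of 0.0604, 0.0965 and 0.0926 without WT replicate 3 and without Runx1 KO replicates 2 and 3.

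Blnk (ENSMUSG00000061132; chromosome 19, 40928927 to 40994535, minus strand), which encodes the adaptor downstream of the receptor, had 1586, 466 and 785 normalised reads under the label WT and 479, 107 and 185 under the label Runx1 KO. Its level in Runx1 KO replicate 1 was just above the lowest WT library, so the groups overlapped. The log2 change was -1.97 (SE 0.61, limma adjusted p = 0.0595), and -2.56 without Runx1 KO replicate 1 (limma adjusted p = 0.0174).

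**Figure D2:**
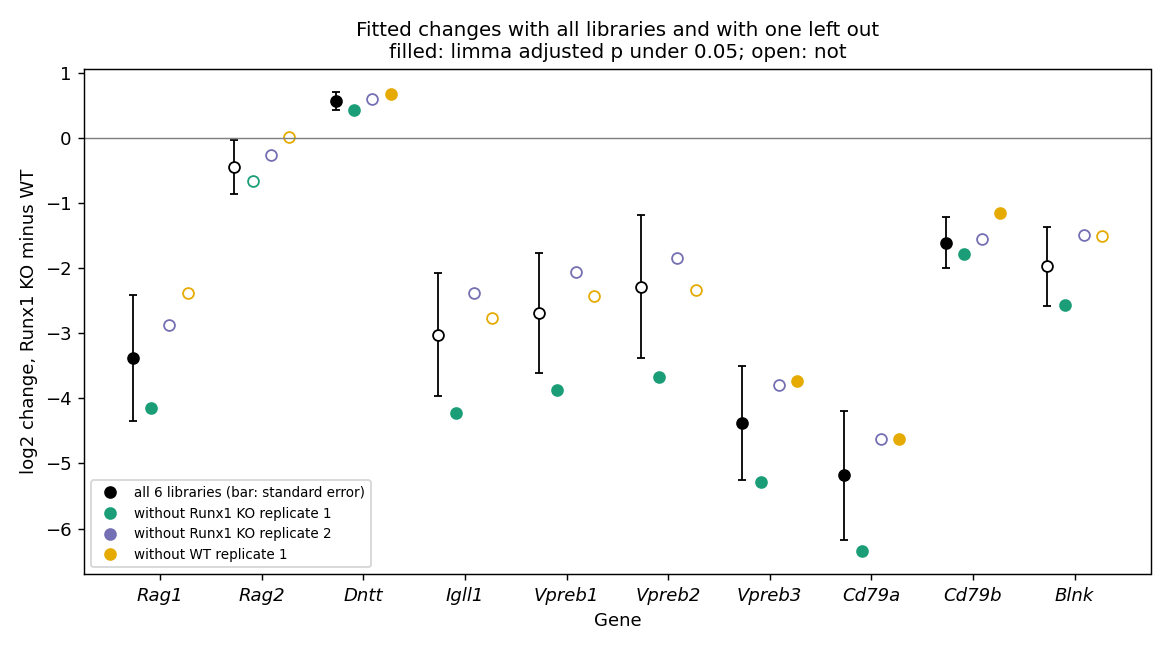
Log2 change of each gene (Runx1 KO minus WT) fitted by limma with all 6 libraries (black, bar: standard error) and with 1 library left out (colours), filled where the adjusted p was under 0.05. Leaving out Runx1 KO replicate 1 (green) gave filled points for 9 genes, whereas leaving out Runx1 KO replicate 2 (purple) gave none.

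Levels of different genes were compared as normalised reads per kilobase of annotated exon, a scale that depends on which isoforms the annotation holds. Under the label WT the order of mean levels was Cd79b (2340 ± 1419, SD, n = 3), Cd79a (2249 ± 1622), Vpreb3 (947 ± 776), Dntt (518 ± 67.1), Rag1 (301 ± 366), Blnk (158 ± 96.3), Vpreb1 (105 ± 36.3), Igll1 (92.8 ± 30.9), Rag2 (29.4 ± 17.8) and Vpreb2 (22.4 ± 3.58). Of the 9 steps in this order, 1 exceeded the larger SD of its pair, that from Igll1 to Rag2. Under the label Runx1 KO the order per kilobase opened with Dntt (774 ± 135) and Cd79b (695 ± 154), which did not differ beyond their spread. Cd79a followed at 102 ± 138 reads per kilobase, the step from Cd79b being the 1 of 9 larger than the spread. The other 7 genes lay at or under 54.1 reads per kilobase, that of Vpreb3.

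Ratios between partners within a library were near equal in both groups for the surrogate light chain genes and far apart for the other pairs. Rag1 to Rag2, per kilobase, was 14.5, 3.84 and 5.64 under the label WT and 1.89, 0.548 and 0.650 under the label Runx1 KO, so that the excess of Rag1 over Rag2 in every WT library was absent in Runx1 KO replicates 2 and 3. Dntt to Rag1 was 0.822, 6.30 and 4.61 under the label WT and 18.6, 89.7 and 55.4 under the label Runx1 KO. Cd79a to Cd79b was 1.03, 0.764 and 0.946 under the label WT, near equal amounts per kilobase, and 0.300, 0.0366 and 0.0375 under the label Runx1 KO. For these 3 ratios the groups did not overlap. The ratio of Igll1 to the sum of Vpreb1 and Vpreb2 moved far less, with 0.766, 0.739 and 0.656 under the label WT and 0.527, 0.581 and 0.693 under the label Runx1 KO, and its groups overlapped. The ratios are given as a description and were not tested.

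**Figure D3:**
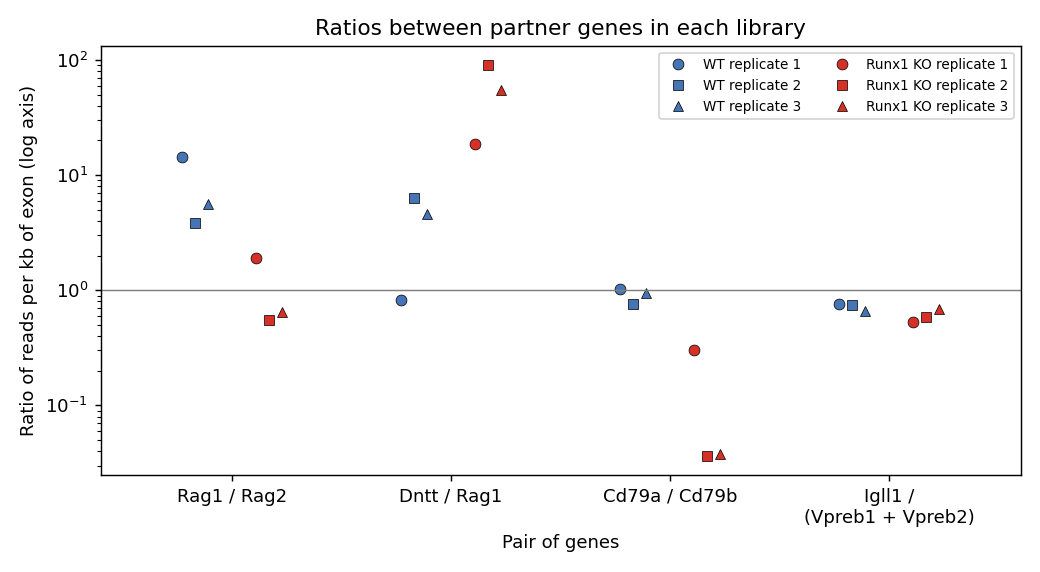
Ratios of reads per kilobase of exon between partner genes in each library (log axis), with the grey line at equal levels. Cd79a to Cd79b lies at 0.764 or more under the label WT and at 0.300 or less under the label Runx1 KO, while Igll1 to Vpreb1 plus Vpreb2 stays between 0.527 and 0.766.

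The spread within the groups was itself uneven across the genes. WT replicate 1 exceeded the mean of the other WT libraries 8.02-fold for Rag1, 3.58-fold for Vpreb3, 3.04-fold for Cd79a, 2.62-fold for Rag2, 2.57-fold for Cd79b and 2.54-fold for Blnk, but 1.71-fold for Igll1, 1.73-fold for Vpreb1 and 0.897-fold for Vpreb2. The summed level of 9 mature B-cell markers in WT replicate 1 was 2.78 times the mean of the other WT libraries, and in Runx1 KO replicate 1 it was 1.69 times the mean of the other Runx1 KO libraries. Likewise, Runx1 KO replicate 1 exceeded the mean of the other Runx1 KO libraries 13.5-fold for Igll1, 12.9-fold for Vpreb1, 11.6-fold for Cd79a, 6.78-fold for Vpreb3, 4.94-fold for Rag1 and 3.28-fold for Blnk, but 1.58-fold for Rag2, 1.43-fold for Cd79b and 1.32-fold for Dntt. The largest such ratio, 48.6-fold for Vpreb2, rests on 23 reads against 1 and 0.

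Lists of markers of other cells that the fraction could hold moved to unlike extents. By the same limma rule, 11.3% of all genes tested were lower and 10.6% higher. The 9 mature B-cell markers summed to 12597, 3467 and 5583 normalised reads under the label WT and to 1659, 1009 and 953 under the label Runx1 KO, and 8 of the 9 fell (11.3% of all genes tested), among them Ms4a1 (log2 change -5.97), Fcrla (-4.96) and Fcer2a (-3.53); H2-Ob was at 0.33 and not called. The 6 plasmacytoid dendritic cell markers summed to between 791 and 1080.1 under the label WT and to 624.5, 87.2 and 54.7 under the label Runx1 KO, where 2 of them, Klk1 (-4.14) and Cox6a2 (-2.18), fell, and Klk1 was at 0 in Runx1 KO replicate 3, the only marker of these lists at 0 in any library. The T-lineage list (8 of its 9 genes listed) summed to between 602 and 1166 under the label WT. Under the label Runx1 KO it summed to 769, 188 and 164. Of its genes 1, Cd6 (-2.04), was lower, 12.5% of those tested and near the share over all genes. The 6 natural killer cell markers summed to between 374 and 459 and to 489, 111 and 68.6, with 0 called by limma, edgeR or DESeq2 (1 lower at an unadjusted p under 0.05 in limma). The 6 plasma cell markers summed to between 3911 and 4895 and to 3910.2, 1309 and 1692; of the 5 tested, Mzb1 (-2.89) and Derl3 (-1.35) fell and Sdc1 (1.40) rose. Of the Runx1 KO libraries, replicate 1 had the highest sum in each of these 5 lists, and the part of these cells in the values above was not tested. In RNA from a whole fraction, fewer cells of a type and less RNA per cell cannot be told apart.

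Of 15 genes for cofactors of the recombinase and for the joining of broken ends, 2 fell and 1 rose, 20.0% against 21.9% of all genes tested, a share near the background. The median log2 change was -0.05. Lig4, the ligase that seals the joints, had 564, 238 and 281 normalised reads under the label WT and 117, 158 and 171 under the label Runx1 KO, with a log2 change of -1.19 (SE 0.33, limma adjusted p = 0.0417). Hmgb2, a DNA-bending cofactor of the recombinase, fell by 0.45 on the log2 scale (SE 0.07), and Atm, the kinase that responds to the breaks, rose by 0.49 (SE 0.13). Those that did not pass lay between -0.32 (Paxx) and 0.40 (Prkdc).

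Of 19 signalling partners of the receptor, 12 fell and 1 rose, against 11.3% and 10.6% of all genes tested, with a median log2 change of -0.50. Blk, a kinase of the SRC family found mainly in B cells, fell by 5.41 on the log2 scale (SE 0.67), from 999, 219 and 442 normalised reads to 23.0, 4.96 and 7.96. Bank1, a scaffold in B-cell signalling, had a log2 change of -2.15 (SE 0.30). Among the 6 that did not pass, the kinases Syk and Btk had log2 changes of -0.42 and 0.13. The groups did not overlap in 18 of the 19 genes, Syk among them, against 43.3% of all genes tested. Dapp1, an adaptor that binds phosphoinositides, rose by 0.49 (SE 0.09).

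Of 13 transcription factors known to act on early B-cell genes, 7 fell and 0 rose in limma, against 11.3% and 10.6% of all genes tested, with a median log2 change of -2.38. In the upward direction 2 passed an unadjusted p under 0.05 in limma, edgeR called 0 and DESeq2 called 2. Of all genes, 5810 of 15410 had an unadjusted p under 0.05 in limma, counted in either direction. Called higher were 10.6% of all genes in edgeR and 11.6% in DESeq2. Spib, Pax5 and Ebf1 fell, with log2 changes of -5.75 (SE 0.84), -5.35 (SE 1.00) and -4.60 (SE 0.98) in limma. Irf4 was level with Ebf1 at -4.59 (SE 0.85), and in edgeR its change of -4.82 was larger than those of Pax5 (-4.66) and Ebf1 (-4.30). Ebf1, which is required to enter the B lineage, had 2256, 338 and 704 normalised reads under the label WT and 135, 18.8 and 12.9 under the label Runx1 KO. Tcf3, which encodes E2A, and Foxo1, a known activator of Rag1 and Rag2, overlapped between the groups, with log2 changes of -0.09 and 0.11. Of 10 genes of early lymphoid progenitors, 4 fell and 1 rose, with the same shares over all genes and a median log2 change of -0.40. Ly6d, a marker of B-lineage commitment among lymphoid progenitors, had a log2 change of -4.99 (SE 0.76), the chemokine receptor gene Ccr7 one of -4.32 (SE 0.75) and Il7r, which encodes a chain of the interleukin-7 receptor, one of -2.15 (SE 0.58). Cd27, which marks multipotent and lymphoid progenitors, rose by 0.50 (SE 0.10). Flt3 and Satb1, which are expressed in lymphoid-primed progenitors beside Dntt, had log2 changes of 0.37 and 0.38 and did not pass.

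**Figure D4:**
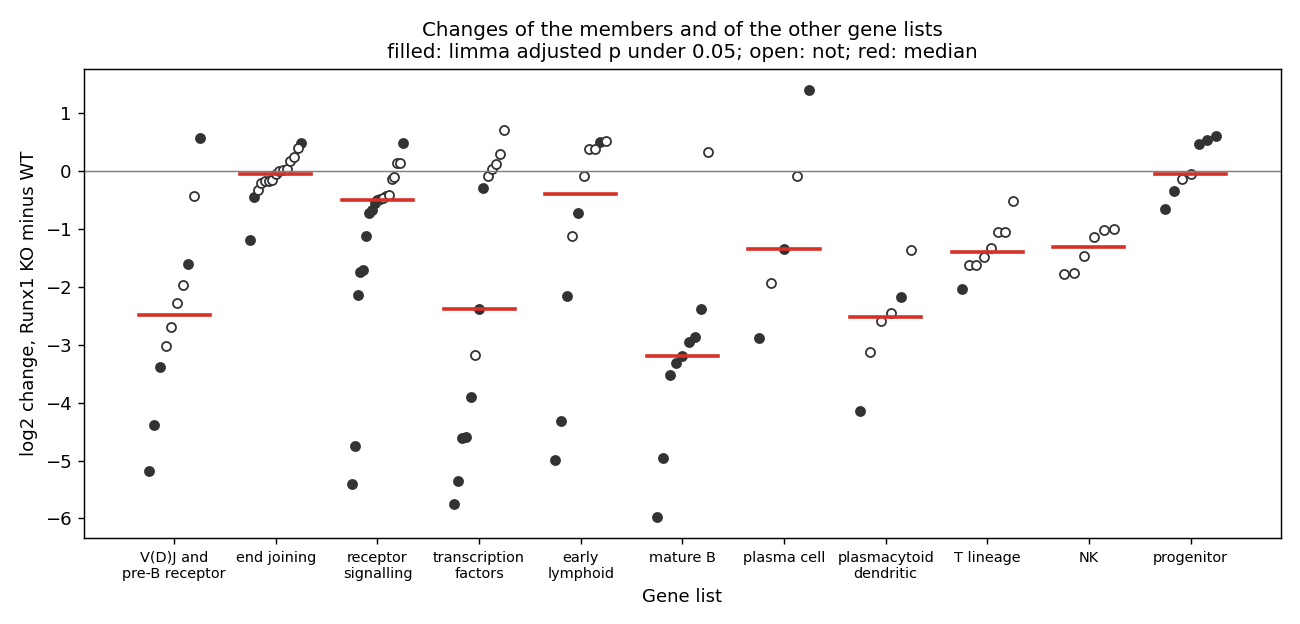
Log2 change (Runx1 KO minus WT) of each tested gene in the 10 genes described here and in the other gene lists, filled where the limma adjusted p was under 0.05, with the median in red. The median of the 10 genes is -2.49, that of the mature B-cell markers -3.20 and that of the end-joining genes -0.05.

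Within 100 kb of the 10 genes the annotation holds 68 others, of which 33 were tested. Their median log2 change was -0.03, and 6 were lower and 1 higher, against 11.3% and 10.6% of all genes tested. The lower ones included Prr5l near the Rag genes (-1.60), Derl3 near Vpreb3 (-1.35), Arhgef1 near Cd79a (-0.53), Ppm1f near Igll1 and Vpreb1 (-0.47) and Psmc5 near Cd79b (-0.23), and the higher one was Tcam1 near Cd79b (0.87). Blnk and Dntt are themselves neighbours, separated by 34740 bases on chromosome 19, and their fitted changes had opposite signs, -1.97 (not called) and 0.57 (called).

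The genes most like Vpreb1 and Dntt were sought over the 6 libraries by the root mean square difference in log2 value after each gene was centred on its own mean. For Vpreb1 these were Igll1 (0.17), Havcr1 (0.26), Ighv9-3 (0.27), Klra7 (0.33) and an immunoglobulin kappa variable gene (0.37), among which Igll1, its partner in the surrogate light chain, was nearest. Vpreb2 ranked 26th, Blnk 115th, Rag1 262nd, Vpreb3 331st, Cd79b 595th, Cd79a 829th, Rag2 1460th and Dntt 12250th. For Dntt the nearest were Abcd2 (0.06), Gm16892 (0.07), Gm20492 (0.07), Mndal (0.08) and Letm2 (0.08), and the other 9 genes described here ranked 13053rd or farther.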

How the data were processed

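The deposited values are a signal, not whole counts: all values of each file (100%, within a tolerance of 0.001) are whole multiples of 1 step per library, so reads were recovered by dividing by that step. HISAT2, HTSeq 0.9.1 and the builds mm10 and GRCm38 are named in the submitters' processing notes; the annotation, the strand setting and the treatment of reads that match several genes are not given in the sources used here. The lowest total of a listed gene was 10 reads. Symbols were matched for 20077 of 20097 identifiers, and positions come from GENCODE M21 (GRCm38).

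Genes passing filterByExpr (minimum count 10, minimum total 15) were tested with limma 3.58.1 (R 4.3.3, lmFit, eBayes with trend) on log2(value + 1), two-sided, with Benjamini-Hochberg adjustment over all 15410 genes. The log2 changes are differences of mean log2(value + 1), which damp changes of genes near 0 reads but weigh each library equally. For Igll1, Vpreb1, Vpreb2 and Cd79a, and by less for Vpreb3 and Blnk, they exceeded those of edgeR in size. edgeR 4.0.16 (quasi-likelihood, TMM) and DESeq2 1.42.0 on recovered reads, other scalings, pseudocounts and filters, a replicate block, and each library left out were alternatives; edgeR called 3261 genes and limma 3370. The scripts were tested on simulated data. Replicates differed beyond counting noise in every pair.

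The genes and lists were chosen with earlier results of these data known. Named are the 10 genes, Runx1 and Kit, up to 3 genes with the largest rise and fall in each list, any end-joining gene or transcription factor, called neighbours, and the 5 genes nearest to Vpreb1 and Dntt. Syk, Btk, Flt3, Satb1, H2-Ob, Mpo, Top3b and B230118H07Rik were named after their values were seen. Some genes that the rule names are not reported here.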

Additional observations from a re-analysis of the deposited data

How the results depend on the processing

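With all libraries kept, 85 of 89 values of the 10 genes stayed on their side of the threshold, Rag1 lost its call in edgeR, and Igll1, Vpreb1 and Blnk gained one with the replicate block. Vpreb2 was left out by a mean CPM filter of 1. With 1 library left out, 41 of 60 stayed, 14 lost a call, 4 gained one and Rag2 reversed (0.018 without WT replicate 1; -0.68 to 0.018 over these fits); the cause was not tested, and fewer libraries also weaken the test. Ranges over these fits were 1367 to 3597 genes called (3370 with all), 0 to 8 of the 10 genes lower (4) and 0 to 1 higher (1). End-joining genes were 0 to 2 higher and 1 to 2 lower, and signalling partners 1 to 1 higher and 7 to 13 lower. Transcription factors were 0 to 1 higher and 4 to 7 lower, and early lymphoid genes 0 to 3 higher and 2 to 5 lower. Of all genes, 4.0% to 10.3% were higher and 4.65% to 12.4% lower in these fits.

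Without WT replicate 1 and Runx1 KO replicate 1 together, chosen after seeing the data, 3785 genes were called, and 8 of the 10 genes were lower (13.2% of all genes). Higher were 2 end-joining genes, 2 transcription factors and 3 early lymphoid genes, against 11.2% of all genes. DESeq2 gave 2 higher end-joining genes, 2 transcription factors and 2 early lymphoid genes, against 11.6% of all genes higher. Library totals, which move the median of all genes to 0.08, gave 3, 1 and 2, and 2 signalling partners, against 15.5%.

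The replicate block gave 3843 genes called, with 7 of the 10 genes and 1 end-joining gene lower (14.2% of all genes). Higher were 2 transcription factors and 2 early lymphoid genes (10.7% of all genes). The numbers do not pair the libraries by the rule used: same-numbered deviations correlated at 0.29, 0.13 and -0.01, and WT replicate 2 correlated best with Runx1 KO replicate 3 (0.23).

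Depth limits Vpreb2, whose Runx1 KO replicates 2 and 3 lie under 3 reads.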
